A study of Mus musculus with 12 samples.

Results

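The genes of antigen presentation were followed in the livers of mice given c-MET/β-catenin oncogenes or empty vector, on chow or on a low-protein diet. They were taken from the count table by symbol. All genes whose mouse symbol begins with H2- were included, together with B2m, Tap1, Tap2, Tapbp, Psmb8, Psmb9, Psmb10, Nlrc5, Ciita and Cd74. This gave 48 of the 27179 genes counted. They comprised 27 class I heavy chain genes or pseudogenes, 8 class I partners, 10 class II chains, 2 class II partners and H2-Ke6, a dehydrogenase gene that lies within the H2 region and encodes no MHC chain.

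MHC class I molecules display peptides from inside the cell to CD8 T cells and NK cells. Their heavy chain pairs with β2-microglobulin (B2m), the proteasome supplies the peptides, the TAP transporter (Tap1 and Tap2) brings them into the endoplasmic reticulum, and tapasin (Tapbp) holds the heavy chain beside that transporter while peptide is loaded. Psmb8, Psmb9 and Psmb10 are the inducible subunits of the immunoproteasome, and Nlrc5 is the transactivator of class I genes. In the mouse, H2-K1 and H2-D1 encode the classical heavy chains, and the Q, T and M genes encode further heavy chains. H2-Q10 encodes a soluble one that the liver secretes. Class II molecules display peptides from endocytosed proteins to CD4 T cells, mainly on dendritic cells, macrophages and B cells. The invariant chain (Cd74) guards their groove, the H2-DM pair exchanges its remnant for peptide, the H2-O pair restrains H2-DM, and Ciita is the transactivator.

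Male mice on chow (CD) or low-protein diet (LPD) received empty vector (Vec, which the sample titles call WT) or the oncogene pair named c-MET/β-catenin, which made 4 groups of 3 livers with 1 library each. The oncogenes were human c-MET and ΔN90-β-catenin, a truncated, constitutively active form, and a hydrodynamic tail vein injection with Sleeping Beauty transposase placed them in a part of the hepatocytes only. Diets began 1 week before injection, and all groups were collected at the end point of the oncogene-bearing CD mice. The labels give the cell type as hepatocyte, but RNA came from whole liver tissue, and markers of leukocytes, endothelium and stellate cells had counts. The strain is given in more than 1 way, and a mixed 129/Ola and C57BL/6 background is among them.

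Libraries held 19476209 to 31990267 counts. Of the 48 genes, 33 had enough counts to be tested and 15 did not, and 7 of the 15 had no count in any library. A count of 0 allows up to 3 counts, which is at most 0.17 CPM (counts scaled to a common library size with TMM factors) in these libraries. Changes are log2 fold changes from edgeR's quasi-likelihood test over 13947 genes, and a gene was called at a Benjamini-Hochberg adjusted p under 0.05. Nothing in the labels says more about how mice were housed or processed together, so p-values measure the spread between these livers.

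Of the 48 genes, 41 have coordinates on chromosome 17, between 33915899 and 37483552 in GRCm38. The MHC chains among them include similar copies, which can share reads. The handling of reads that fit several genes is not stated. In the reference transcripts, 53.5% of the 50-base windows of H2-T22 also occur in another gene, as do 36.4% for H2-Q4, 35.0% for H2-Q6, 26.5% for H2-Q7, 19.1% for H2-Q10, 16.1% for H2-Q2, 15.0% for H2-Q1, 12.8% for H2-D1 and 9.63% for H2-K1. Counts of the single class I copies are therefore uncertain. Tapbp shares 23.2% of its windows, most of them with the overlapping gene Gm19412. The classical class II chains are distinct, with 0.514% shared for H2-Aa and none for H2-Ab1 and H2-Eb1, whereas H2-DMb1 shares 22.7% with H2-DMb2.

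At these genes 2 libraries stood apart from the other 10, CD Vec replicate 2 and LPD c-MET/β-catenin replicate 3. H2-Eb1, a classical class II β chain, measured 1.08 and 1.92 CPM in these 2 libraries and 12 to 54.9 CPM in the other 10. H2-Eb1 reads per 100 reads of H2-Ab1 were 8.64 and 2.78, against 69.1 to 101 in the others. H2-Ea, annotated as a pseudogene in the C57BL/6 reference, had 6 and 51 counts there, and among the other 10 libraries it had 1 count in LPD c-MET/β-catenin replicate 1. H2-T23, the Qa-1 heavy chain that engages NK cell receptors, was at 32.6 and 34.9 CPM, below the 225 to 473 CPM of the others, and H2-T22 was at 16.3 and 16.9 CPM against 87.5 to 244 CPM. The pseudogene H2-T10 lay the other way, at 54.6 and 53.9 CPM against 1.85 to 5.83 CPM. H2-K1 was also lowest in both libraries, at 783 and 633 CPM, and H2-D1 was highest, at 630 and 663 CPM.

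Across the whole table, 6 genes put both libraries at least 4-fold outside the range of the other 10, on CPM with 0.2 added. Of these, 5 lie in the H2 span of chromosome 17, which holds 199 genes of the table, and 4 are H2-Eb1, H2-T22, H2-T23 and H2-T10. No other pair among the remaining 65 pairs of libraries had a gene in that span under the same criterion. The pair was chosen after its values were seen, and no test was made of it. Whether the genotype of these mice differs at this region was not tested. Results are given for all 12 libraries, and calls that differed without these 2 are given beside them.

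**Figure D1:**
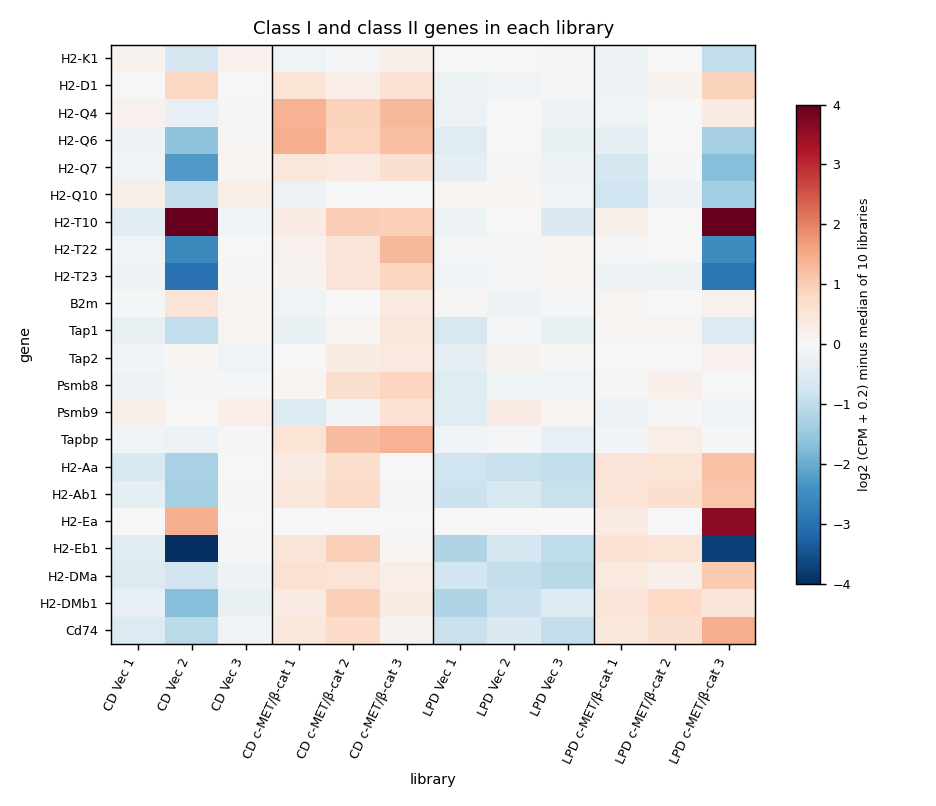
Log2 (CPM + 0.2) of class I and class II genes in each of the 12 libraries, minus the median of the 10 libraries other than CD Vec replicate 2 and LPD c-MET/β-catenin replicate 3. Colors are capped at 4 in either direction, and those 2 libraries carry the low values of H2-Eb1, H2-T22 and H2-T23 and the high values of H2-T10.

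Promoter stretches are shown for 6 members whose levels are followed below. H2-K1 and H2-D1 are the classical class I chains, H2-Q4 and H2-Q6 are Q genes, and H2-Aa and H2-Eb1 are class II chains. Each is the 200 bases before the RefSeq start in GRCm38.p6, read along the gene. Where RefSeq gives several starts, the one nearest the GENCODE start was used. The H2-D1 start used lies 364 bases from its GENCODE start, and the others coincide with theirs. H2-K1 is at chr17:34000348-34000547 (minus strand), H2-D1 at chr17:35262894-35263093 (plus), H2-Q4 at chr17:35379417-35379616 (plus), H2-Q6 at chr17:35424650-35424849 (plus), H2-Aa at chr17:34287824-34288023 (minus) and H2-Eb1 at chr17:34305667-34305866 (plus). Capitals mark matches on either strand to GGGATTCCC (κB), GAAANNGAAA (the core of an interferon-stimulated response element), CTGATTGG (Y box, bound by NF-Y), TGACG (CRE core) or CTTTGA (TCF/LEF core).
H2-K1: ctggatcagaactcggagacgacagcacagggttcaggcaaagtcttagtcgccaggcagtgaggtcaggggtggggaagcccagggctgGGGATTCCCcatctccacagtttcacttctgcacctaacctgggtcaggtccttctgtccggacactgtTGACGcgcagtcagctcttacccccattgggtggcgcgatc
H2-D1: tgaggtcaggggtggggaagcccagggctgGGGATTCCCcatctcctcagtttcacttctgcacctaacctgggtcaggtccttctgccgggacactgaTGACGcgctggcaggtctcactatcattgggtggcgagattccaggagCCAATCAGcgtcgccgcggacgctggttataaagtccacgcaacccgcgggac
H2-Q4: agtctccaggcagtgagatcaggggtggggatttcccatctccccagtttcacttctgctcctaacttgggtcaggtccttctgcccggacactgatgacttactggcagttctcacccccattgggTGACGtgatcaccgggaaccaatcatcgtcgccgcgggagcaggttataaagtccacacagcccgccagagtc
H2-Q6: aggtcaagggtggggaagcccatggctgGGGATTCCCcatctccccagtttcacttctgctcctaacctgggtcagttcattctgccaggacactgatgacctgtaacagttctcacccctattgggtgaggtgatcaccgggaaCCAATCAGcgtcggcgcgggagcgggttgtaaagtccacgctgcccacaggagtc
H2-Aa: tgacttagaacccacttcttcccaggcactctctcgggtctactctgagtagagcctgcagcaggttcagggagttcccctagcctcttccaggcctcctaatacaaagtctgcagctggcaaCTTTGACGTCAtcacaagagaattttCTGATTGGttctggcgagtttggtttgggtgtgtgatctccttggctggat
H2-Eb1: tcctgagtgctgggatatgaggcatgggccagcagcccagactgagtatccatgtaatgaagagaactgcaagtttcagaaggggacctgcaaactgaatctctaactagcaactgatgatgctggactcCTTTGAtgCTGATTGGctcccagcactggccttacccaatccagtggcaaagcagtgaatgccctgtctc
In H2-D1 and H2-Q6 the capitals are the κB match and, on the opposite strand, the Y box, with a CRE core between them in H2-D1. H2-K1 shows the κB match and a CRE core, and H2-Q4 a CRE core. The Y box found for H2-K1 in the longer promoters below lies outside this stretch. In H2-Aa a TCF/LEF core overlaps a CRE core on the same strand, which in turn overlaps one on the opposite strand, and the Y box follows. H2-Eb1 has a TCF/LEF core just before its Y box.

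RefSeq promoters of 300 bases, 250 before and 50 after the start, were found for 37 of the 48 members. The Y box letters occurred in 19 of the 37, among them 13 of 22 class I heavy chains and 4 of 8 class II chains, against 4.1% of all 32851 promoters. The κB letters occurred in H2-K1, H2-D1, H2-Q6 and H2-Q7 and in 0.353% of all promoters. The interferon element was found in B2m, H2-T22 and H2-T23, with 3.44% of all promoters. TGACG occurred in 15 of the 37 and in 20.8% of all promoters. CTTTGA occurred in 10 of the 37, Tapbp, H2-Aa, H2-DMa and H2-Eb1 among them, and in 16% of all promoters. Members were counted by gene, with a match at any of its starts, and all promoters by start, so the shares differ in unit. These are matches of letters, and no binding was measured.

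The level of class I exceeded that of class II in every library. Summed over the 27 heavy chain genes, class I measured 4274 ± 1290 CPM in CD Vec, 4848 ± 593 in CD c-MET/β-catenin, 4458 ± 192 in LPD Vec and 3262 ± 878 in LPD c-MET/β-catenin (SD, n = 3 each). All LPD c-MET/β-catenin livers, from 2405 to 4159 CPM, lay below all LPD Vec livers and all CD c-MET/β-catenin livers, and the other groups overlapped. Without the 2 libraries that stood apart, the means were 5020 in CD Vec and 3690 in LPD c-MET/β-catenin (n = 2 each). H2-Q10 supplied 38.3% to 57.0% of the sum, and H2-K1 and H2-D1 most of the rest.

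Class II chains summed to 65.3 ± 33.2 CPM in CD Vec, 135 ± 35.3 in CD c-MET/β-catenin, 54.0 ± 4.80 in LPD Vec and 149 ± 8.55 in LPD c-MET/β-catenin (SD, n = 3 each). Oncogene-bearing livers on both diets lay above all Vec livers on the same diet. The lowest CD c-MET/β-catenin liver, at 101 CPM, was close to the highest CD Vec liver, at 95.8 CPM. Class II chains amounted to 1.46 ± 0.416 CPM per 100 CPM of class I heavy chains in CD Vec, 2.84 ± 0.893 in CD c-MET/β-catenin, 1.21 ± 0.1 in LPD Vec and 4.84 ± 1.58 in LPD c-MET/β-catenin. Without the 2 libraries that stood apart, the class II sum was 83.0 CPM in CD Vec and 144 in LPD c-MET/β-catenin, and the amount per 100 CPM of class I was 1.65 and 3.97 (n = 2 each). These sums are descriptions and were not tested.

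Markers of leukocytes were read beside these sums. Ptprc, which encodes the pan-leukocyte antigen CD45, ranged over 5.06 to 6.87 CPM in CD Vec, 9.70 to 12.6 in CD c-MET/β-catenin, 6.52 to 7.74 in LPD Vec and 9.48 to 16.1 in LPD c-MET/β-catenin. It was higher with c-MET/β-catenin on CD (0.87, SE 0.21, adjusted p = 0.00754) and missed the threshold on LPD (0.85, SE 0.21, adjusted p = 0.0786). The 6 monocyte and macrophage markers summed to 43.9 to 92.8 CPM in CD Vec, 171 to 198 in CD c-MET/β-catenin, 62.2 to 87.0 in LPD Vec and 104 to 155 in LPD c-MET/β-catenin, and 4 of the 6 were called higher on CD and 0 on LPD. Over all genes, 18.7% were called higher on CD and 1.15% on LPD, and the counts of the marker lists stand beside those shares. The 8 dendritic cell markers summed to 6.42 to 7.91, 9.67 to 11.9, 5.18 to 7.05 and 7.72 to 13.2 CPM in the same order, and of 6 tested 1 was called higher on CD and 2 on LPD. The 6 B cell markers summed to 1.19 to 2.85, 2.51 to 3.06, 3.26 to 4.72 and 3.15 to 3.72 CPM, with 0 called on either diet. The 8 T and NK cell markers summed to 3.06 to 5.57, 4.59 to 8.04, 2.73 to 5.02 and 5.58 to 9.27 CPM, with 2 of 7 tested called higher and 1 lower on CD and 0 on LPD. The 5 Kupffer cell markers overlapped on CD and not on LPD, at 83.7 to 189, 126 to 267, 126 to 159 and 167 to 303 CPM, with 0 called. With those 2 left out, 3 of the 6 monocyte and macrophage markers were called higher on CD, 1 of 7 dendritic cell markers on LPD, and 0 T and NK cell markers lower on CD. No marker of these lists was at 0 in all libraries. Their part in the class II result was not tested, and in bulk tissue more cells of a type and more RNA per cell cannot be told apart.

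**Figure D2:**
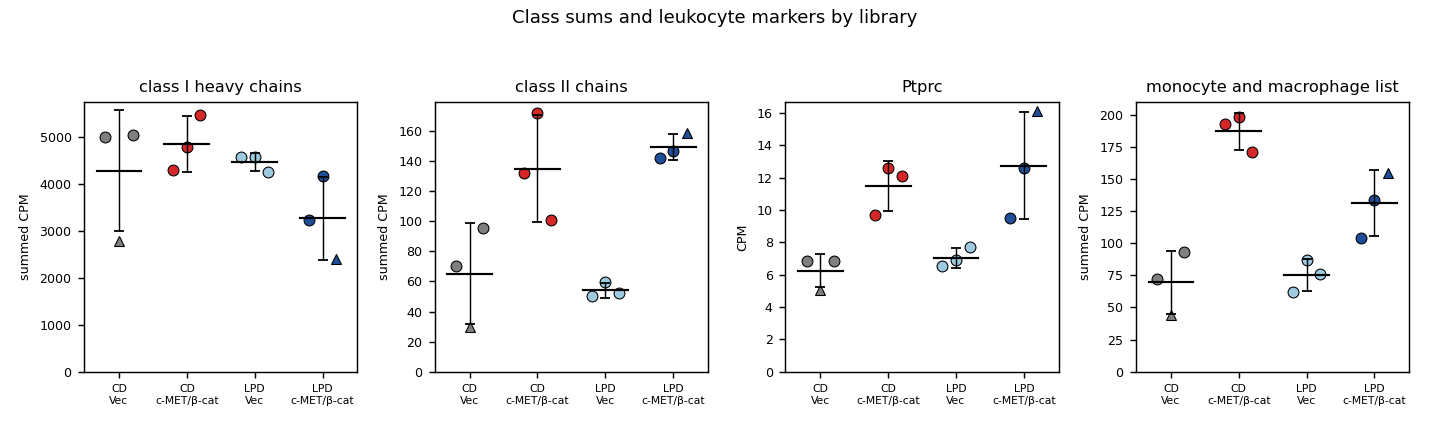
Summed CPM of class I heavy chains and class II chains, CPM of Ptprc, and summed CPM of 6 monocyte and macrophage markers, by group, on linear axes from 0. Points are libraries, triangles are CD Vec replicate 2 and LPD c-MET/β-catenin replicate 3, and lines with bars are the mean ± SD of 3; class II chains and Ptprc are higher in oncogene-bearing livers on both diets, and class I heavy chains overlap on CD.

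To ask how class II differed with the oncogenes on chow, the chains were compared between CD c-MET/β-catenin and CD Vec. Over all genes, 18.7% were called higher and 16.7% lower in this comparison. Of the 7 class II chains tested, 4 were called higher and 0 lower, and their median log2 fold change was 0.93 beside -0.01 over all genes. H2-Aa, the classical α chain, measured 19.9, 12.1 and 29.8 CPM in the CD Vec livers and 38.2, 49.1 and 30.8 CPM in the CD c-MET/β-catenin livers. The groups did not overlap, but the nearest livers differed little, and H2-Aa was higher by 0.93 (SE 0.29, adjusted p = 0.0260). Its partner chain H2-Ab1 measured 24.8, 12.5 and 32.9 CPM against 44.1, 54.6 and 31.1 CPM, with overlap at 1 liver, and a change of 0.89 (SE 0.31, adjusted p = 0.0413). Cd74 measured 52.9, 36.8 and 70.6 CPM against 107, 133 and 85.6 CPM, with no overlap, and rose by 1.02 (SE 0.29, adjusted p = 0.0175).

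Of the 3 peptide exchange chains, 2 rose alongside. H2-DMa measured 2.14, 1.82 and 2.81 CPM against 4.99, 4.77 and 3.93 CPM, a change of 1.01 (SE 0.28, adjusted p = 0.0134). H2-DMb1 measured 2.80, 0.966 and 2.86 CPM against 4.47, 7.13 and 4.42 CPM, a change of 1.26 (SE 0.36, adjusted p = 0.0176). Neither gene overlapped between the groups. Ciita was below 5 CPM in every library and narrowly missed the threshold (1.14, SE 0.43, adjusted p = 0.0557). H2-Eb1, with 19.8, 1.08 and 26.6 CPM against 39.1, 54.9 and 29.6 CPM, did not overlap between the groups but was not called (1.37, SE 0.96, adjusted p = 0.296). Without the 2 libraries that stood apart it was called at 0.82 (SE 0.26, adjusted p = 0.0378), and H2-Ab1 was not (0.58, SE 0.22, adjusted p = 0.0724). H2-Aa (0.66, SE 0.21, adjusted p = 0.0399), Cd74 (0.81, SE 0.21, adjusted p = 0.0166), H2-DMa (0.88, SE 0.24, adjusted p = 0.0194) and H2-DMb1 (0.91, SE 0.29, adjusted p = 0.0411) were called there at smaller sizes. H2-DMb2 (0.02, SE 1.01) and H2-Ob (0.89, SE 0.74) were not called, and H2-Ea, H2-Eb2 and H2-Oa were too low to test.

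These calls rested on few livers. Over the 12 fits that each left out 1 library, H2-DMa was called in 12, H2-DMb1 in 11, Cd74 in 10, H2-Aa in 8 and H2-Ab1 in 4, the last with an adjusted p of up to 0.14 and its call lost without any of 8 libraries (CD Vec 1 and 2, CD c-MET/β-catenin 1 and 2, LPD Vec 1, 2 and 3, and LPD c-MET/β-catenin 2). Cd74 missed the threshold when either CD Vec replicate 2 or CD c-MET/β-catenin replicate 2 was absent (adjusted p up to 0.0634), and H2-DMb1 when the latter was (0.0701). H2-Aa lost its call without either of these and without replicate 1 of CD Vec or of CD c-MET/β-catenin (its adjusted p reached 0.0929). Numbers in the header of the count table fall into 3 runs of unstated meaning, and 1 run holds CD Vec replicate 3 and CD c-MET/β-catenin replicate 3. Within it the log2 difference of these 2 livers was 0.05 for H2-Aa, -0.08 for H2-Ab1, 0.28 for Cd74, 0.46 for H2-DMa and 0.59 for H2-DMb1. CD c-MET/β-catenin replicates 1 and 2, the highest CD livers for H2-Aa, H2-Ab1, Cd74 and H2-DMa, form a run of their own, and run and liver cannot be told apart. With a term for the runs in the fit, no class II chain or partner was called on CD.

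On LPD, class II made up all the calls. Over all genes, 1.15% were called higher between LPD c-MET/β-catenin and LPD Vec, and 4 of the 33 members were called higher and 0 lower. H2-Aa measured 17.4, 16.4 and 15.2 CPM in LPD Vec and 43.3, 44.3 and 67.8 CPM in LPD c-MET/β-catenin, a change of 1.67 (SE 0.29, adjusted p = 0.0181). H2-Ab1 measured 17.4, 20.8 and 17.2 CPM against 45.8, 49.7 and 69.2 CPM, a change of 1.57 (SE 0.31, adjusted p = 0.0323). The highest Vec liver was below the lowest oncogene-bearing liver by a wide margin for both chains. Cd74 measured 42.1, 51.6 and 38.9 CPM against 105, 120 and 213 CPM, a change of 1.72 (SE 0.30, adjusted p = 0.0150). H2-DMa measured 1.87, 1.56 and 1.38 CPM against 4.30, 3.72 and 6.91 CPM, a change of 1.63 (SE 0.28, adjusted p = 0.0149).

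In all 4 of these genes, LPD c-MET/β-catenin replicate 3, one of the libraries that stood apart, was the highest. Without the 2 libraries, 7 members were called higher on LPD, against 1.48% of all genes. They were H2-Aa (1.42, SE 0.21, adjusted p = 0.00896), H2-Ab1 (1.37, SE 0.22, adjusted p = 0.0144), H2-Eb1 (1.53, SE 0.25, adjusted p = 0.0176), H2-DMa (1.31, SE 0.23, adjusted p = 0.0244), H2-DMb1 (1.60, SE 0.29, adjusted p = 0.0261), Cd74 (1.35, SE 0.20, adjusted p = 0.0110) and the class I gene H2-Q1. With all libraries H2-DMb1 had missed the threshold (1.54, SE 0.37, adjusted p = 0.0663), as had Ciita (1.45, SE 0.44, adjusted p = 0.168). With any 1 LPD Vec liver left out, 0 members were called. H2-Ab1 also lost its call without CD Vec replicate 1, and without replicate 2 or 3 of LPD c-MET/β-catenin. Over all 12 fits that left out 1 library, the adjusted p reached 0.0955 for Cd74 and H2-DMa, 0.104 for H2-Aa and 0.155 for H2-Ab1, and the lowest log2 fold change was 1.31, that of H2-DMa. Within the header run that holds LPD Vec replicates 2 and 3 and all LPD c-MET/β-catenin livers, the 4 genes differed by 1.5 to 1.67, and by 1.32 to 1.46 without LPD c-MET/β-catenin replicate 3. With a term for the header runs in the fit, none of the 4 was called on LPD.

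**Figure D3:**
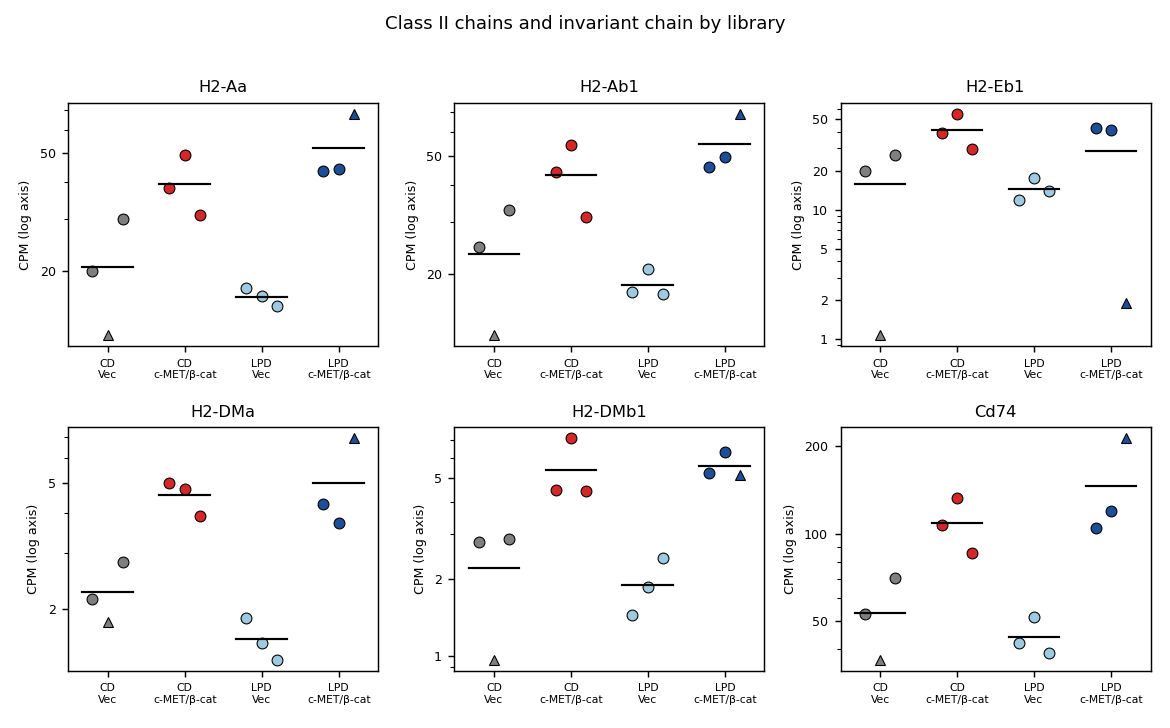
CPM of 5 class II chains and Cd74 in each library, on log axes that differ between panels. Points are libraries, triangles are CD Vec replicate 2 and LPD c-MET/β-catenin replicate 3, and bars are the mean of 3; LPD c-MET/β-catenin lies above LPD Vec in every panel except for the low triangle of H2-Eb1.

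Among class I heavy chains, the classical genes were not called on all 12 libraries, while several Q genes rose with the oncogenes on chow. Of 15 heavy chain genes tested on CD, 5 were called higher and 1 lower, beside 18.7% and 16.7% of all genes. H2-K1 measured 1380, 783 and 1420 CPM in CD Vec and 1110, 1190 and 1450 CPM in CD c-MET/β-catenin, and the groups overlapped (0.06, SE 0.26, adjusted p = 0.874). H2-D1 measured 359, 630 and 344 CPM against 508, 423 and 529 CPM, and its highest liver was a Vec liver, one of the 2 that stood apart (0.13, SE 0.28, adjusted p = 0.743). It was called higher once the 2 libraries were left out, at 0.47 (SE 0.15, adjusted p = 0.0424). H2-Q10, the most abundant heavy chain by CPM per kilobase of exon in CD Vec, measured 2840, 1210 and 2810 CPM against 2040, 2360 and 2440 CPM, with a fitted change of 0.00 (SE 0.32, adjusted p = 0.996). With the 2 libraries left out the CD values turned or moved to -0.31 for H2-Q10 (SE 0.19, adjusted p = 0.237) and -0.17 for H2-K1 (SE 0.15, adjusted p = 0.418). On LPD, H2-Q10 measured 2610, 2530 and 2140 CPM in Vec and 1380, 2050 and 920 CPM with c-MET/β-catenin, without overlap, and was not called (-0.74, SE 0.32, adjusted p = 0.417, and -0.50, SE 0.20, adjusted p = 0.315, without the 2 libraries).

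H2-Q1 had the largest change of the 33 members on CD. It measured 4.79, 0.966 and 1.61 CPM in CD Vec and 52.4, 141 and 143 CPM in CD c-MET/β-catenin, a change of 5.5 (SE 1.08, adjusted p = 0.0026). Every oncogene-bearing liver was far above every Vec liver. On LPD it measured 1.2, 1.06 and 0.564 CPM in Vec, and 42.3, 35.7 and 0.962 CPM with c-MET/β-catenin. The low value was LPD c-MET/β-catenin replicate 3, which left the change of 4.79 uncalled (SE 1.12, adjusted p = 0.0711). With the 2 libraries left out H2-Q1 was called on LPD (5.35, SE 0.57, adjusted p = 0.00293) and on CD (5.12, SE 0.61, adjusted p = 0.000649).

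H2-Q4, H2-Q6 and H2-Q2 were high in CD c-MET/β-catenin and near the Vec level elsewhere. H2-Q4 measured 39.8, 27.7 and 33.4 CPM in CD Vec, 91.7, 66.7 and 86.1 in CD c-MET/β-catenin, 29.5, 35.0 and 30.3 in LPD Vec and 30.8, 34.9 and 43.7 in LPD c-MET/β-catenin. The change was 1.28 on CD (SE 0.18, adjusted p = 0.000251) and 0.21 on LPD (SE 0.17, adjusted p = 0.776). H2-Q6, which encodes a Qa-2 chain, measured 7.94, 2.84 and 9.37 CPM in CD Vec, 25.6, 16.6 and 21.4 in CD c-MET/β-catenin, 6.52, 9.04 and 7.59 in LPD Vec and 7.03, 9.26 and 3.54 in LPD c-MET/β-catenin. The CD change was 1.66 (SE 0.41, adjusted p = 0.0082), and on LPD it was -0.22 (SE 0.40, adjusted p = 0.924). H2-Q2 stayed below 3 CPM and rose by 2.76 on CD (SE 0.47, adjusted p = 0.00095), with 0.60 on LPD (SE 0.51, adjusted p = 0.779). H2-Q4 and H2-Q6 kept the direction of their CD change within the header run of CD replicate 3, by 1.36 and 1.17 (1 liver against 1). With a term for the header runs in the fit, H2-Q4 was the 1 heavy chain still called on CD.

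H2-M3, which presents formylated peptides, measured 3.31, 2.10 and 2.86 CPM in CD Vec and 4.56, 5.06 and 4.38 CPM in CD c-MET/β-catenin, without overlap, and rose by 0.75 (SE 0.21, adjusted p = 0.0160). With CD c-MET/β-catenin replicate 2 left out it missed the threshold (adjusted p = 0.0512). H2-Bl, annotated as a pseudogene, was at 0.968, 2.10 and 2.34 CPM in CD Vec and 0.289, 0.489 and 0.299 CPM in CD c-MET/β-catenin, and fell by 2.33 (SE 0.53, adjusted p = 0.00522). H2-T22 (1.29, SE 0.67), H2-T23 (1.12, SE 0.71), H2-Q7 (0.96, SE 0.50), H2-T24 (0.66, SE 0.51), H2-K2 (-0.57, SE 0.47) and H2-T10 (-1.97, SE 1.29) were not called. Leaving out the 2 libraries, H2-T23 (0.62, SE 0.19, adjusted p = 0.0361) and H2-T10 (1.11, SE 0.29, adjusted p = 0.0183) were called, the latter with its sign turned, and the members called higher on CD were 15 of 34 tested beside 17% of all genes. When the 14 class I genes of the K, D, Q and T series were summed into 1 feature, the change on CD was 0.18 (SE 0.24, adjusted p = 0.592), and on LPD -0.45 (SE 0.25, adjusted p = 0.556). With those 2 left out it was -0.06 on CD (SE 0.17, adjusted p = 0.832), with the sign turned, and -0.27 on LPD (SE 0.17, adjusted p = 0.588).

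**Figure D4:**
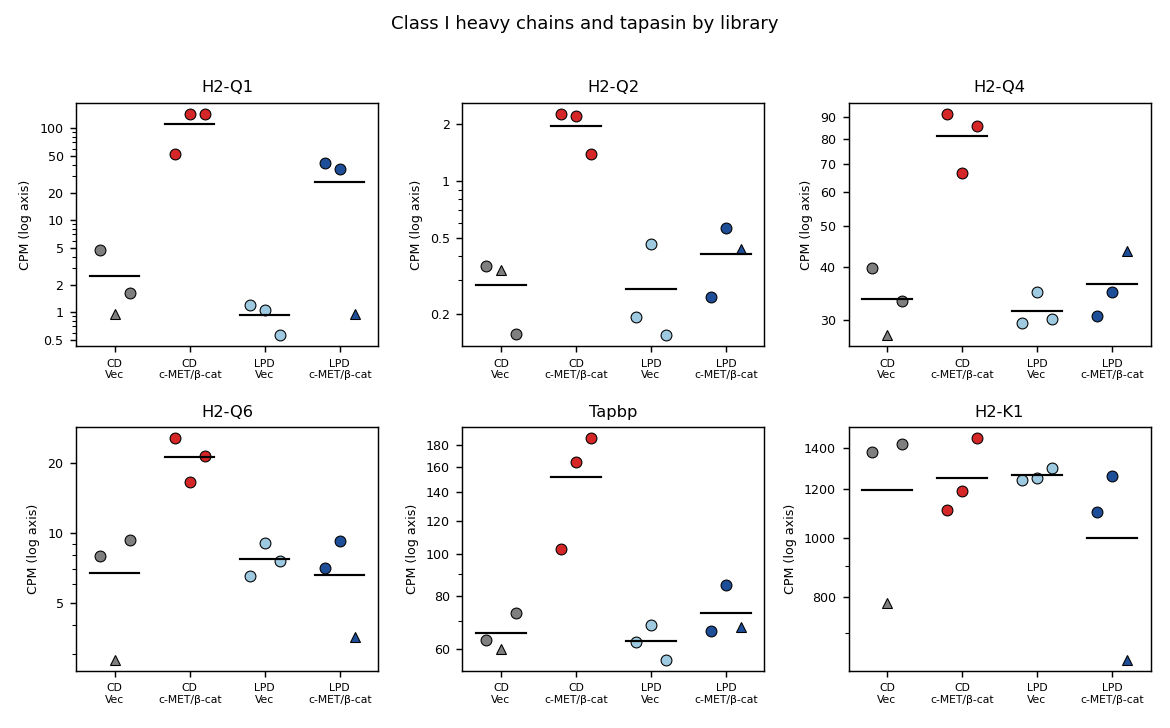
CPM of 5 class I heavy chain genes and Tapbp in each library, on log axes that differ between panels. Points are libraries, triangles are CD Vec replicate 2 and LPD c-MET/β-catenin replicate 3, and bars are the mean of 3; H2-Q2, H2-Q4, H2-Q6 and Tapbp stand highest in CD c-MET/β-catenin, and H2-K1 overlaps between groups.

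Of the 8 partners of class I, 2 were called higher on CD, a share near the 18.7% of all genes, and 0 on LPD. Tapbp measured 63.1, 60.0 and 72.9 CPM in CD Vec, 103, 165 and 187 in CD c-MET/β-catenin, 62.5, 68.4 and 56.7 in LPD Vec and 66.0, 84.7 and 67.7 in LPD c-MET/β-catenin. All 3 CD c-MET/β-catenin livers were above the other 9, and the change was 1.21 on CD (SE 0.20, adjusted p = 0.000648) and 0.22 on LPD (SE 0.19, adjusted p = 0.794). Psmb8, an immunoproteasome subunit, measured 34.8, 38.5 and 39.1 CPM in CD Vec and 42.5, 62.6 and 73.5 CPM in CD c-MET/β-catenin, and rose by 0.67 (SE 0.18, adjusted p = 0.0119). On LPD it had 0.34 (SE 0.18, adjusted p = 0.538). B2m, the shared light chain, measured 1110, 1640 and 1250 CPM in CD Vec and 1030, 1150 and 1510 CPM in CD c-MET/β-catenin (-0.11, SE 0.18, adjusted p = 0.654).

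The other subunits and transporters were not called on CD. These were Psmb9 (-0.13, SE 0.26), Psmb10 (0.41, SE 0.20), Tap1 (0.45, SE 0.28) and Tap2 (0.31, SE 0.15). Nlrc5 was also not called, at 0.40 (SE 0.24, adjusted p = 0.215) on CD and 0.50 (SE 0.24, adjusted p = 0.489) on LPD. Tap1 measured 29.3, 18 and 38.5 CPM in CD Vec and 29.6, 38.8 and 49.0 CPM in CD c-MET/β-catenin, with overlap. A value that missed the threshold does not show that these genes stayed level, since an SE of 0.15 to 0.28 leaves room for changes of this size.

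Markers of other liver cells were read on CD as well, where 18.7% of all genes were called higher and 16.7% lower. In the bile duct, endothelial and hepatocyte lists 1 gene each was called, which is near those shares. In the stellate list 2 of 5 were called higher and 2 lower, above those shares in a short list. Krt19, a keratin of bile duct cells, measured 0.764, 0.739 and 0.781 CPM in CD Vec, 3.67, 6.56 and 7.03 in CD c-MET/β-catenin, 1.39, 0.802 and 1.23 in LPD Vec and 0.928, 1.16 and 0.874 in LPD c-MET/β-catenin. Like H2-Q4 and Tapbp it was highest in the 3 CD c-MET/β-catenin livers, and it rose by 2.91 on CD (SE 0.32, adjusted p = 7.05e-05), with -0.20 on LPD (SE 0.32, adjusted p = 0.913) and an interaction of -3.10 (SE 0.45, adjusted p = 0.00353). It was the 1 of 4 bile duct markers called on CD, and their summed level averaged 8.21 CPM in CD Vec, 11.6 in CD c-MET/β-catenin, 9.35 in LPD Vec and 5.95 in LPD c-MET/β-catenin. Of 5 stellate cell markers, Acta2 (2.91) and Reln (1.53) were called higher on CD and Lrat (-1.42) and Dcn (-1.30) lower, with sums of 188 to 238, 177 to 301, 187 to 220 and 189 to 248 CPM in the same order. Clec4g of sinusoidal endothelium (-1.09) and Ttr of hepatocytes (-0.87) were each the 1 of 5 markers called, both lower. With the 2 libraries left out, Apoa1 was also called higher (0.69, adjusted p = 0.03) and Kdr lower (-1.31, adjusted p = 0.00484). None of these lists had a call on LPD with edgeR. Their part in the class I results was not tested.

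**Figure D5:**
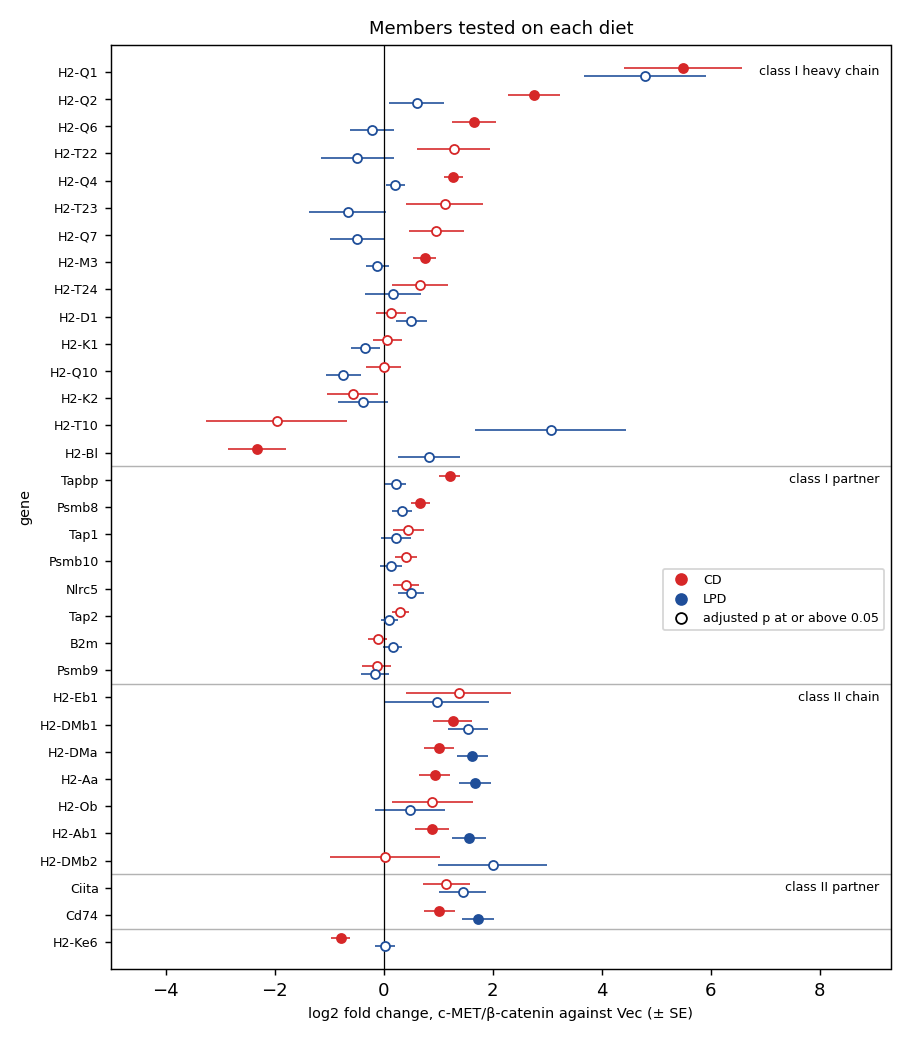
Fitted log2 difference, oncogene-bearing minus Vec, with CD in red and LPD in blue, for the 33 members tested, grouped by class, with bars of 1 SE. Filled points have an adjusted p under 0.05; on LPD the 4 filled points are H2-Aa, H2-Ab1, H2-DMa and Cd74, and on CD they include Q genes and Tapbp.

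LPD was then compared with CD, within Vec livers and within c-MET/β-catenin livers. For c-MET/β-catenin mice at this collection time, the paper reports a lower tumor burden on LPD than on CD. Diet and amount of tumor cannot be told apart in those livers, here or in the interaction below. These comparisons use the same 12 livers as those above, so their values are not independent of them. In Vec livers 0 members were called with edgeR, beside 0.308% of all genes, 1 had an unadjusted p under 0.05, and DESeq2 called 1, H2-Bl. H2-Bl had -2.21 in edgeR (SE 0.54, adjusted p = 0.105). The class II chains had a median of -0.34 and H2-Aa -0.34 (SE 0.29, adjusted p = 0.771). In the 10 remaining libraries the median was -0.605 and H2-Aa had -0.61 (SE 0.21, adjusted p = 0.368), 8 members had an unadjusted p under 0.05, 4 of them class II chains, beside 1386 of all 14219 genes tested, and 0 were called.

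In c-MET/β-catenin livers, 0 members were higher on LPD than on CD, beside 1208 of all 13947 genes. Of the 33 members, 4 were lower, a share near the 11.3% of all genes. They were H2-Q4 (-1.16, SE 0.17, adjusted p = 0.00135), Tapbp (-1.06, SE 0.19, adjusted p = 0.0037), H2-Q2 (-2.19, SE 0.44, adjusted p = 0.00528) and H2-Q6 (-1.68, SE 0.40, adjusted p = 0.0137). For each of these 4, all LPD livers were below all CD livers. H2-Q6 missed the threshold with LPD c-MET/β-catenin replicate 3 left out (adjusted p = 0.0509). The 14 class I genes of the K, D, Q and T series, summed into 1 feature, were not called (-0.573, SE 0.245, adjusted p = 0.123). Without the 2 libraries that feature had -0.389 (SE 0.174, adjusted p = 0.152). None of the 7 class II chains was called with edgeR, and their median was 0.34, or 0.118 without the 2 libraries. H2-Aa had 0.40 (SE 0.28, adjusted p = 0.360) and Cd74 had 0.43 (SE 0.29, adjusted p = 0.326). In those 10 libraries, 6 members were lower, beside 9.28% of all genes. These added H2-Q7 (-0.83, SE 0.21, adjusted p = 0.0274) and H2-T23 (-0.74, SE 0.20, adjusted p = 0.0313), and Tapbp was at -1.0 (SE 0.23, adjusted p = 0.0212). H2-Ke6 was the 1 member called higher there (0.42, SE 0.12, adjusted p = 0.0388), beside 1110 of all 14219 genes.

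Whether the change with the oncogenes differed between diets was tested as an interaction, the change on LPD minus the change on CD. It was called for 3 of the 33 members, a share near the 8.91% of all genes, and all were in class I. H2-Q4 had -1.07 (SE 0.25, adjusted p = 0.0230), Tapbp had -0.99 (SE 0.27, adjusted p = 0.0438) and the pseudogene H2-Bl had 3.16 (SE 0.77, adjusted p = 0.0286). H2-Q2 (-2.16, SE 0.71, adjusted p = 0.0795) and H2-Q6 (-1.88, SE 0.57, adjusted p = 0.0631) missed the threshold. No class II member was called, with H2-Aa at 0.73 (SE 0.41, adjusted p = 0.284), H2-Ab1 at 0.68 (SE 0.43, adjusted p = 0.344) and Cd74 at 0.70 (SE 0.41, adjusted p = 0.306). The larger class II changes on LPD than on CD were therefore not separated from the spread between livers. Without the 2 libraries H2-Q4 alone was called, at -1.09 (SE 0.22, adjusted p = 0.0324), beside 4% of all genes, and Tapbp was at -0.88 (SE 0.33, adjusted p = 0.148). The Tapbp call held in 3 of the 12 fits that left out 1 library, and the H2-Q4 call in 8.

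Around these genes, 41 companions of the pathway were read from the table, of which 39 were tested. On CD, 10 were called higher and 4 lower, beside 18.7% and 16.7% of all genes, and on LPD 1 higher and 0 lower, beside 1.15% of all genes called higher. Of 6 class II processing genes tested, 4 rose on CD. They were Ctss, the protease that trims the invariant chain (1.45, SE 0.29, adjusted p = 0.00262), Lgmn (1.41, SE 0.22, adjusted p = 0.00053), the thiol reductase Ifi30 (0.72, SE 0.20, adjusted p = 0.0158) and Marchf1, a ligase that removes class II from the surface (1.45, SE 0.38, adjusted p = 0.0109). The costimulatory genes Cd40 (1.77, SE 0.39, adjusted p = 0.00419) and Cd86 (1.36, SE 0.29, adjusted p = 0.00354) rose too. None of 7 genes of class I folding and peptide supply and none of 3 constitutive proteasome genes was called on either diet.

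The receptor of interferon gamma stood out among the companions. Ifngr1 measured 18.9, 18.9 and 18.7 CPM in CD Vec, 163, 151 and 102 in CD c-MET/β-catenin, 17.9, 22.9 and 20.7 in LPD Vec and 52.1, 58.8 and 39.7 in LPD c-MET/β-catenin. On CD it rose by 2.88 (SE 0.20, adjusted p = 7.59e-06). The LPD increase was 1.29 (SE 0.19, adjusted p = 0.00619), and every oncogene-bearing liver was above every Vec liver. The interaction was -1.59 (SE 0.26, adjusted p = 0.00624). Irf2 measured 99.3, 75.8 and 76.3 CPM in CD Vec and 34.9, 38.6 and 36.9 CPM in CD c-MET/β-catenin. It encodes a factor that binds interferon response elements, fell by 1.19 on CD (SE 0.17, adjusted p = 0.000345), and had an interaction of 1.26 (SE 0.24, adjusted p = 0.0116). Of the class I-like genes, Cd1d1 (-0.91, SE 0.20, adjusted p = 0.00423) and Azgp1 (-0.85, SE 0.20, adjusted p = 0.00622) fell on CD, and Mr1 and Hfe were also called lower without the 2 libraries (-0.84, adjusted p = 0.0399, and -0.44, adjusted p = 0.0406). Irf8 (1.17, SE 0.26, adjusted p = 0.0048), Nfyb (0.53, SE 0.17, adjusted p = 0.0255) and Ifngr2 (0.53, SE 0.16, adjusted p = 0.0196) rose, and Nfya fell (-0.85, SE 0.24, adjusted p = 0.0175). Of these, Nfyb (adjusted p = 0.0665), Ifngr2 (0.0706) and Nfya (0.0669) were not called without the 2 libraries.

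H2-Ke6, the dehydrogenase gene, measured 74.1, 116 and 69.7 CPM in CD Vec and 42.6, 54.1 and 53.5 CPM in CD c-MET/β-catenin. The groups did not overlap, and it fell by 0.79 on CD (SE 0.18, adjusted p = 0.00518), with 0.02 on LPD (SE 0.18, adjusted p = 0.986). In the reference transcripts, 70.5% of its windows occur in another gene. Of the H2-M genes other than H2-M3, H2-M2 reached 31 counts in 1 library and the others 2 counts or fewer.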

How the data were processed

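RNA was sequenced from 12 livers in 4 groups of 3. The deposited values are integer read counts per gene, which the authors made by aligning reads to mm10 with HISAT2 and counting with featureCounts under Entrez identifiers. Versions, the strand setting and the handling of multiply mapped reads are not given in the sources used here. The labels name a kit with ribosomal RNA depletion, the methods an mRNA kit. Column names write HPD for chow, and the labels' chow was kept.

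Identifiers were paired with symbols through RefSeq (25275) and GENCODE M21 (18 more), and 1886 had none. Counts were tested in R 4.3.3 with edgeR 4.0.16 (TMM factors 0.864 to 1.12, filterByExpr, robust quasi-likelihood test, 1 coefficient per group, all 12 libraries). SE was derived from the fold change and its F statistic. DESeq2 1.42.0 was an alternative. Calls were tested on simulated data. Libraries differed by at least 27.2 in chi-square per gene within groups, so no replicate pair was a duplicate. Genes were named by a rule that took the classical chains, all listed partners, all class II chains, and other H2- genes that were called or had a mean of at least 1 CPM. Members and lists were chosen with earlier results of these data known. The interval left by counting 0 covers counting error only.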

Additional observations from a re-analysis of the deposited data

Results flagged for a closer look

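The effect of c-MET/β-catenin differed between diets for 3 members and 2 companions by edgeR's interaction test (change on LPD minus change on CD, Benjamini-Hochberg adjusted). The 3 of 33 members are a share near the 8.91% of all genes. H2-Q4 had -1.07 (adjusted p = 0.0230), with 3 of 3 CD c-MET/β-catenin livers above all others. Tapbp had -0.99 (adjusted p = 0.0438), again with 3 of 3 such livers above all others. H2-Bl had 3.16 (adjusted p = 0.0286), at levels below 3 CPM in every library. Without CD Vec replicate 2 and LPD c-MET/β-catenin replicate 3, H2-Q4 was still called (adjusted p = 0.0324), and Tapbp (0.148) and H2-Bl (2.28, adjusted p = 0.109) were not. Ifngr1 had -1.59 (adjusted p = 0.00624), and -1.44 without those 2 libraries (adjusted p = 0.0268). Irf2 had 1.26 (adjusted p = 0.0116), and 1.26 without them (adjusted p = 0.0360).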

How the results depend on the processing

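All 25 calls of single members kept their direction in the 489 refits, of which 84 lost the call, and the difference within a header run turned for H2-Ab1 on CD (-0.08, 1 liver against 1). A term for the runs of header numbers lowered the members called to 2 on CD, 0 on LPD, 2 for diet in oncogene-bearing livers and 0 for the interaction, and H2-Q4 and Tapbp were the 2 genes that held on CD and for diet. Fits to the 2 groups compared gave 9 on CD and 7 on LPD. DESeq2 gave 1 for diet in Vec livers, beside 143 genes higher and 196 lower of its 13932. For the interaction it gave 6, beside 1005 genes higher and 1078 lower. Shares over all genes are not given for the run term, the 2-group fits, summed copies, the replicate block or single libraries left out. Those counts have no comparison. Summing similar class I copies gave 1 for diet in oncogene-bearing livers. Leaving out 1 library gave 9 to 16 on CD, 0 to 5 on LPD, 3 to 7 for diet in oncogene-bearing livers and 0 to 3 for the interaction. The 0 on LPD came without each LPD Vec replicate, the 9 on CD without CD c-MET/β-catenin replicate 2, the 7 for diet without CD Vec replicate 2, and the 0 for the interaction without LPD Vec replicate 2 or 3. The fit without CD Vec replicate 2 and LPD c-MET/β-catenin replicate 3, chosen after seeing the data, gave 17 on CD, 7 on LPD, 7 for diet in oncogene-bearing livers and 1 for the interaction. The cause of these shifts was not tested. Replicate numbers do not pair the livers (correlations of deviations -0.183 to 0.167, 2 of 18 pairs over 0.1), and a replicate block gave 13 calls on CD, 3 on LPD, 0 and 4 for diet, and 2 for the interaction. Total counts only moved the median change of all genes on CD from -0.01 to 0.28 and the share of calls that were higher from 52.8% to 78.8%, on LPD the median from 0.01 to 0.12, and for the interaction the median from 0.02 to -0.16 and the share from 50.4% to 29%. The summed class levels moved by less than 1 SD under total counts, and without CD Vec replicate 2 class II in CD Vec moved from 65.3 to 83.0 CPM. Genes below 1 CPM had few counts, and their changes are imprecise.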

Other observations

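H2-Aa reads per 100 H2-Ab1 reads ranged from 78.7 to 99.7 over all 12 livers, with the 2 libraries that stood apart inside the range of the other 10. H2-Ab1 reads per 100 Cd74 reads were 34.0 and 32.5 in those 2 and 36.4 to 46.9 in the others. H2-D1 reads per 100 H2-K1 reads were 80.5 in CD Vec replicate 2 and 105 in LPD c-MET/β-catenin replicate 3, against 24.1 to 45.9 in the other 10, and the lowest of the 3 CD c-MET/β-catenin livers, at 35.5, was above every one of those 10 outside that group. Tap1 reads per 100 Tap2 reads were 59.1 and 75.2 in the 2 libraries and 100 to 150 in the others. H2-K1 reads per 100 B2m reads were 47.7 and 49.2, against 87.9 to 126. The cause was not tested.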
